A study of Mus musculus with 2 samples.

Results

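The 32 genes described here are macrophage genes, of 55536 GENCODE genes in the deposited gene table. They were chosen by name, with earlier results of these data known. Most are genes used to recognise macrophages in general or Kupffer cells, the macrophages of the liver. All 32 were found by symbol in both quantifications of the libraries. Clec4f, Timd4, Vsig4, Marco and Cd5l form the Kupffer-type set of 5 genes. The other 27 are general macrophage genes, counted together with Csf1 and Il34, cytokines that act on macrophages and do not mark them. The tissue was adrenal gland of female B6CASTF1/J mice, a hybrid strain, at 14 days of age, with no treatment or engineered allele named, and total RNA depleted of ribosomal RNA was sequenced. The labels give 1 group with 2 replicate libraries, each from 300 ng of RNA with ERCC spike-ins, which are synthetic RNAs of known amount. Replicate 1 is labelled as tissue of pooled females and replicate 2 as tissue of 1 female, although both carry one donor identifier and one library description. Whether the replicates are separate animals was not settled, so part of their spread could be technical, and no comparison between conditions exists.

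Tissue macrophages survive on signals through the receptor tyrosine kinase Csf1r, which binds the cytokines Csf1 and Il34, and they take their identity from the transcription factor PU.1, the product of Spi1. They carry Fc receptors that bind antibody-coated particles, adaptors that pass the signal on, scavenger receptors, and lysosomal enzymes that digest what was taken up. Kupffer cells sit inside the sinusoids of the liver and add receptors for blood-borne particles to this common programme. The adrenal gland has resident macrophages of its own between the cells of the cortex and the medulla.

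The gene table held 37586172 expected counts in replicate 1 and 33844950 in replicate 2, of which the 32 members took 6765 and 8058. Markers of the labelled tissue were high in both libraries and lower in replicate 2. Levels are given as TPM, a count per transcript length relative to all entries of the table. Star, which carries cholesterol into mitochondria, had 2049 TPM in replicate 1 against 838 in replicate 2, and Th, the first enzyme of catecholamine synthesis, had 174 and 65.5 TPM. Hepatocyte genes went the other way, with Alb, serum albumin, at 189 and 10582 TPM. In bulk tissue, a difference in the number of cells of a type and a difference in RNA per cell cannot be told apart. Intervals below are exact (Clopper-Pearson) at 95% and cover counting error only. A count of 0 would allow up to 3 counts at these depths, and no member was at 0 in either library.

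The Kupffer-type genes were nearly absent from replicate 1 and present in replicate 2, while most other macrophage genes differed by less than 2-fold. The 5 Kupffer-type genes together had 51 counts in replicate 1 and 1108 in replicate 2. With counts scaled by edgeR's TMM factors, which set the typical gene to no difference, their sum was 30.5-fold higher in replicate 2 (interval 23.0 to 41.3). The other 27 genes summed to 6714 and 6950 counts, which was 1.45-fold higher in replicate 2 (1.41 to 1.504). On the per-length TPM scale the Kupffer-type genes gave 0.751% of the members' summed level in replicate 1 and 16.3% in replicate 2, whereas the other members summed to 97.8 and 99.2 TPM.

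Of the 30 members with a mean count of at least 20, 10 were at least 2-fold higher in replicate 2, beside 8.38% of all 16137 genes of that depth. None was at least 2-fold lower, beside 2.55% of all genes, and the other 20 lay within 2-fold. The 10 were the 5 Kupffer-type genes, Fcgr2b, Aif1, Adgre1, Spi1 and Mrc1. Counting intervals lay above no difference for 20 members, beside 30.3% of all genes, and below it for 2, Irf8 and Laptm5, beside 26.9%. As the members were chosen with earlier results of these data known, these shares describe the set and do not test it. The count of 20 became 16 with spike-in and 15 with total-count scaling. The median log2 difference between replicate 2 and replicate 1, computed with 0.5 added to each count, was 4.41 for the Kupffer-type genes and 0.62 for the 25 others of that depth. Over all 16137 genes it was -0.002. The value of 0.62 fell to 0.34 with spike-in scaling, 0.28 with total-count scaling, 0.04 on log2(TPM + 1) and 0.08 on log2(TPM + 0.1). Scaling by spike-ins or by total counts moved that median over all genes to -0.28 or -0.34. On log2(TPM + 1) and log2(TPM + 0.1) the median over all genes was -0.31 and -0.41, below that of the 25 others. The differences below are read against the TMM scale. Fcgr1 and Ms4a7 fell under the depth limit and were not counted.

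**Figure D1:**
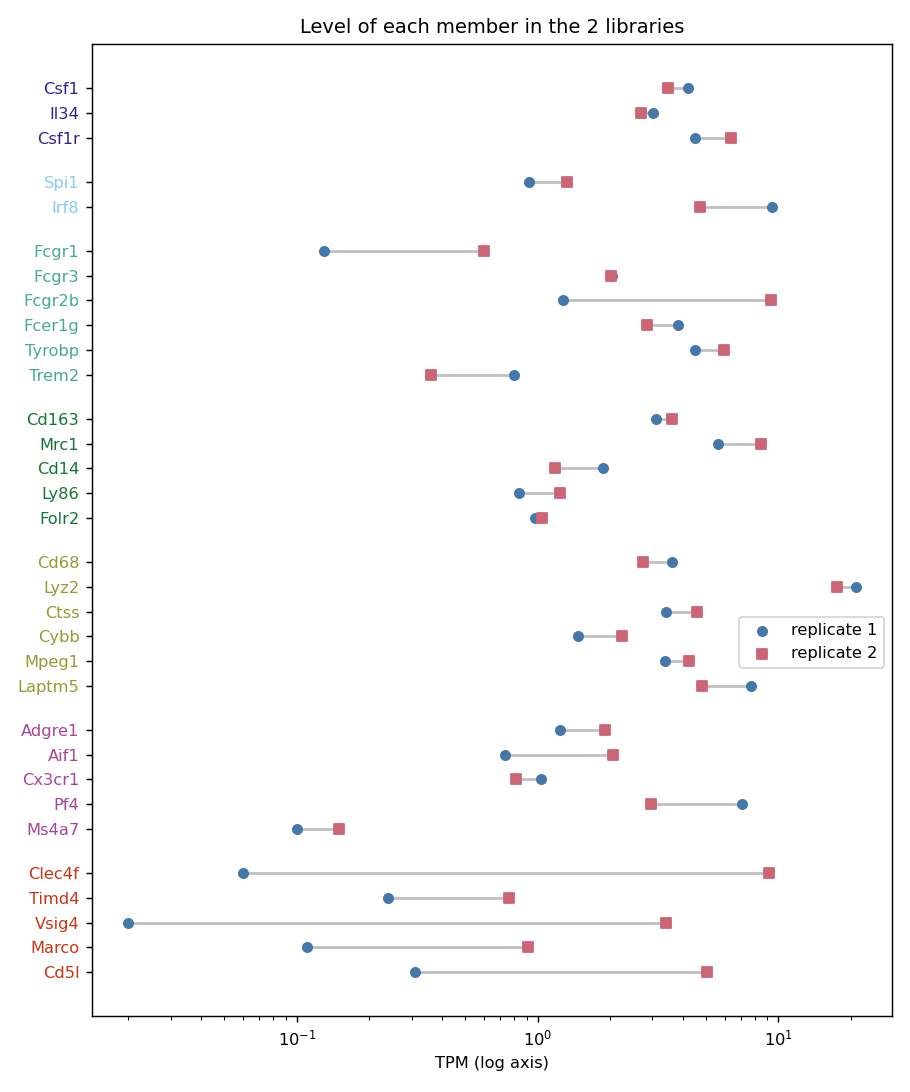
Level of each of the 32 members in TPM on a log axis, with a circle for replicate 1 and a square for replicate 2, grouped by role from the Csf1 axis at the top to the Kupffer-type genes at the bottom. Lyz2 lies farthest right in both libraries, and Clec4f and Vsig4 span the widest gaps.

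The median member level was 1.67 and 2.795 TPM in replicates 1 and 2, against medians of 2.06 and 1.90 TPM over all protein-coding genes. At least 1 TPM was reached by 20 members in replicate 1 and by 26 in replicate 2. Lyz2 was the first member by TPM in both libraries. Behind it came Irf8, Laptm5, Pf4 and Mrc1 in replicate 1, but Fcgr2b, Clec4f, Mrc1 and Csf1r in replicate 2. Clec4f moved from place 31 to place 3 of the 32 members, Fcgr2b from 18 to 2, Cd5l from 26 to 7 and Vsig4 from 32 to 14. The order of the TPM levels in the 2 libraries had a Spearman rho of 0.823 over the 27 other members and 0.564 over all 32, as a description over genes of the same libraries.

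Among the Kupffer-type genes, Clec4f, a C-type lectin that binds galactose-bearing glycans and marks mouse Kupffer cells, had 5 counts in replicate 1 and 527 in replicate 2, or 0.06 and 9.10 TPM. Almost all of its signal came from replicate 2, at 148-fold the scaled count of replicate 1 (interval 63.1 to 458). Vsig4, the complement receptor that binds C3b-coated particles, had 1 and 150 counts, or 0.02 and 3.41 TPM. Its ratio of 211 has a wide counting interval, from 37.3 to 8379, since 1 count stood in the denominator. Cd5l, a secreted scavenger-receptor protein that binds to IgM, had 21 and 324 counts, or 0.31 and 5.07 TPM. It was 21.7-fold higher in replicate 2 (13.9 to 35.5).

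Marco and Timd4 had lower TPM in replicate 2 than the first 3. Marco, a class A scavenger receptor for bacteria and particles, had 7 and 55 counts, or 0.11 and 0.91 TPM, an 11.0-fold difference (5.01 to 28.7). Timd4, a receptor for phosphatidylserine on dying cells that resident macrophages of several tissues carry, had 17 and 52 counts, or 0.24 and 0.76 TPM. Its difference was 4.30-fold (2.45 to 7.93), and the intervals of Timd4 and Clec4f do not overlap. Neither gene reached 1 TPM in either library. All 5 kept a higher value in replicate 2 under every scaling and in the second transcript table.

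Set against Csf1r in the same library, the Kupffer-type genes changed place within the macrophage signal. The TPM ratio of Clec4f to Csf1r was 0.0134 in replicate 1 and 1.43 in replicate 2, that of Cd5l to Csf1r 0.0690 and 0.798, and that of Vsig4 to Csf1r 0.00445 and 0.537. For Timd4 the ratio to Csf1r was 0.0535 and 0.120, and for Marco 0.0245 and 0.143. These ratios do not depend on how the libraries are scaled to each other. Ratios between common macrophage genes varied in how far they moved. Mrc1 to Csf1r was 1.25 and 1.33, and Cd163 to Csf1r 0.690 and 0.567. Lyz2 to Csf1r was 4.68 and 2.75, Tyrobp to Fcer1g 1.18 and 2.09, and Fcgr2b to Fcgr3 0.623 and 4.66.

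The sequences just upstream of the Kupffer-type genes are shown because these 5 genes were higher together in replicate 2. They are the RefSeq windows of 250 bases before the start on build GRCm38.p6, 5′ to 3′ on the strand of the gene, without the 71 bases of the Clec4f window that lie in an annotated exon. Capitals mark GAGGAA, a purine-rich core that PU.1 binds, or its reverse complement TTCCTC.
Clec4f (chr6:83656188-83656366, minus strand): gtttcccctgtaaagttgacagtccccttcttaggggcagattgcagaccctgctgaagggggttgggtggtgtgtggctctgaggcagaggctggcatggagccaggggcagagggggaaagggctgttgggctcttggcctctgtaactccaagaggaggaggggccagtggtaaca
Timd4 (chr11:46810549-46810798, plus strand): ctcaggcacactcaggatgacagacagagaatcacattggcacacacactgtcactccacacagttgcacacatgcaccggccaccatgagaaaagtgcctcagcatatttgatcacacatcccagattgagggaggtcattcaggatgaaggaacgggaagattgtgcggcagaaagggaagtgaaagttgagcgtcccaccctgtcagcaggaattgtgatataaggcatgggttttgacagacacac
Vsig4 (chrX:96293439-96293688, minus strand): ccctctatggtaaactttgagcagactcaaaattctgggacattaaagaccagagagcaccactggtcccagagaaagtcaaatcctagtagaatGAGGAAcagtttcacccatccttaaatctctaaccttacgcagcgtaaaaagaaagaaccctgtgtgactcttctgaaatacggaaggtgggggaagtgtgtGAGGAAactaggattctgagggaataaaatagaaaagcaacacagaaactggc
Marco (chr1:120505025-120505274, minus strand): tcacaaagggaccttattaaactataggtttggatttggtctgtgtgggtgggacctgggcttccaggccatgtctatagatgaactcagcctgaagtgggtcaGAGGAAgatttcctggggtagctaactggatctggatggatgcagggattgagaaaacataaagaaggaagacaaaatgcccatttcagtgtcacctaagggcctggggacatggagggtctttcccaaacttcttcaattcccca
Cd5l (chr3:87357631-87357880, plus strand): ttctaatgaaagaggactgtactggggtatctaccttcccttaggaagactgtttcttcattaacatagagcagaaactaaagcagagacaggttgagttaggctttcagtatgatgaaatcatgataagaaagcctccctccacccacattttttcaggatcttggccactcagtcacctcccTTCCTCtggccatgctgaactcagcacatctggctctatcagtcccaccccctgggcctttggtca

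In these 250 bases GAGGAA began 155 and 53 bases before the start of Vsig4 and 146 bases before that of Marco, and the reverse complement began 66 bases before the start of Cd5l. The windows of Clec4f and Timd4 hold neither. RefSeq windows from 250 bases before to 50 after the start were found for 26 members, and not for Il34, Spi1, Csf1r, Cd14, Adgre1 and Tyrobp. In these longer windows GAGGAA on either strand was present for 14 of 26 members (53.8%), 3 of the 5 Kupffer-type genes among them, against 31.3% of 27025 genes. TATAAA on either strand, which shares no full match with GAGGAA, was present for 3 of 26 members (11.5%), Irf8, Ctss and Laptm5, against 15.7% of genes. These matches describe letters and not binding.

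Of the Csf1 axis, both ligands lay near no difference between the libraries and the receptor was higher in replicate 2. Csf1, the main survival cytokine of macrophages, had 428 and 355 counts, or 4.23 and 3.47 TPM. Il34, the second ligand, had 102 and 79 counts, or 3.02 and 2.68 TPM. On the TMM scale their differences were small, at log2 0.22 and 0.12, and both turn negative with spike-in or total-count scaling. The fold interval of Csf1 lay just above no difference (1.009 to 1.34), and that of Il34 held it (0.801 to 1.47). Csf1r had 626 and 752 counts, or 4.49 and 6.35 TPM, and was 1.69-fold higher in replicate 2 (interval 1.52 to 1.88). Csf1 stood above Il34 at TPM ratios of 1.401 and 1.295 in the gene table, but at 1.403 and 0.964 in the second transcript table.

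Spi1 and Irf8, the transcription factors of the set, went opposite ways. Spi1 had 37 counts in replicate 1 and 62 in replicate 2, or 0.92 and 1.32 TPM, a 2.35-fold difference (1.54 to 3.64) that lies just under 2-fold with spike-in or total-count scaling. Irf8, an interferon regulatory factor of monocytes, dendritic cells and B cells, had 845 and 395 counts, or 9.40 and 4.71 TPM. On the TMM scale of the gene table it was the member with the lowest log2 difference, at -0.61. The 0.657-fold value (0.581 to 0.741) lay below no difference. Of 5 measured B cell genes, 0 were past 2-fold in either direction, as Irf8 itself was not. The median of that list was 0.04, and its summed levels were 4.48 and 3.77 TPM. The 5 measured monocyte genes had a median of -0.25, and that list's summed levels were 11.8 and 7.43 TPM. In the dendritic cell list 1 gene, Zbtb46, was measured, at -0.05. Which cells carried the difference of Irf8 was not tested.

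Of the 6 genes of Fc receptors and their signalling partners, Fcgr2b stood apart. Fcgr2b, the inhibitory receptor for IgG, which endothelial cells of the liver sinusoids also carry, had 77 counts in replicate 1 and 532 in replicate 2, or 1.27 and 9.36 TPM. It was 9.71-fold higher in replicate 2 (7.63 to 12.5) in the gene table, and its log2 difference of 3.27 there compares with 2.44 in the second transcript table. Fcgr3, an activating IgG receptor encoded nearby on chromosome 1, had 87 and 83 counts, or 2.04 and 2.01 TPM, and an interval that held no difference (0.980 to 1.83). The TPM ratio of Fcgr2b to Fcgr3 was therefore 0.623 in replicate 1 and 4.66 in replicate 2, and 0.835 and 4.69 in the second table.

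Both genes share coding sequence, which is shown here because reads from it cannot be placed by sequence alone. The longest stretch common to the coding parts of the leading transcripts Fcgr2b-202 and Fcgr3-201 was 129 bases. It runs from exon 3 into exon 4 of each. It covers coding positions 278 to 406 of 879 in Fcgr2b (mm10, chr1:170966674-170968081 with an intron between, minus strand) and 263 to 391 of 801 in Fcgr3 (chr1:171054167-171057792, minus strand). Capitals are not used, since the whole stretch is shared.
Fcgr2b and Fcgr3: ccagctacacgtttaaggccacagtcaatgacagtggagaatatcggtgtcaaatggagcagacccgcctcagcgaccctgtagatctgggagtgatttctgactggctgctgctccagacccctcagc

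Windows of 50 bases shared with the other gene made up 11.8% of Fcgr2b-202 and 12.8% of Fcgr3-201, so the authors' counting could split some of their reads, and both values are uncertain to that extent. Fcgr1, the high-affinity IgG receptor, had 11 and 21 counts, or 0.13 and 0.60 TPM, and was not counted. Fcer1g, the common gamma chain that Fc receptors signal through, had 76 and 54 counts, or 3.82 and 2.85 TPM, with a scaled fold of 0.998 (0.691 to 1.43). Tyrobp, the adaptor of Trem2, had 75 and 93 counts, or 4.49 and 5.97 TPM, and was 1.74-fold higher in replicate 2 (1.27 to 2.39). Trem2, a lipid-sensing receptor of macrophages, had 29 and 16 counts, or 0.80 and 0.36 TPM, with an interval that held no difference (0.393 to 1.48). Receptor and adaptor thus had log2 differences of opposite sign, -0.35 and 0.80, at counts where the first is imprecise.

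**Figure D2:**
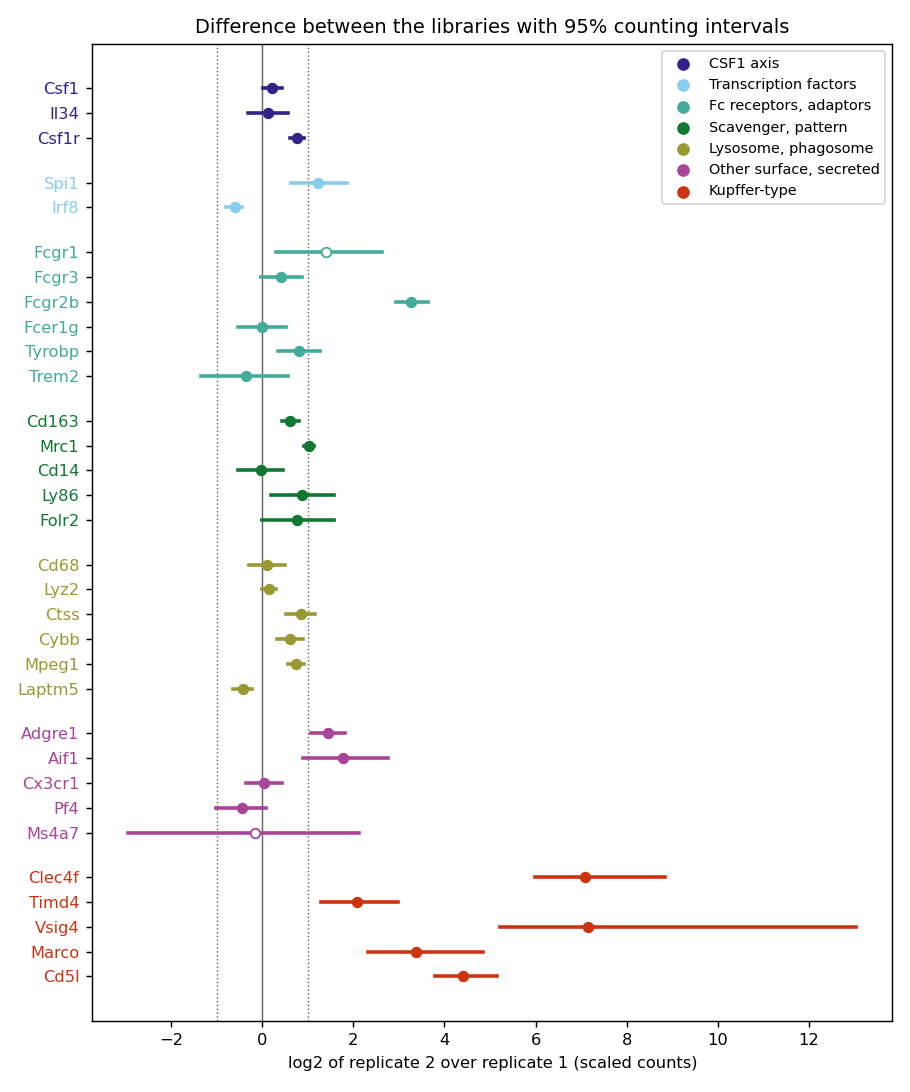
The log2 difference of replicate 2 over replicate 1 for each member (circle, TMM-scaled counts with 0.5 added) with the 95% counting interval of the plain count ratio (line). Open circles mark Fcgr1 and Ms4a7, under a mean count of 20, dotted lines mark 2-fold, and the Kupffer-type genes and Fcgr2b lie farthest right.

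The scavenger and pattern receptors were led by Mrc1 and Cd163. Mrc1, the mannose receptor, which sinusoidal endothelium of the liver also expresses, had 1007 and 1458 counts, or 5.62 and 8.45 TPM. Its 2.03-fold difference (1.88 to 2.21) sits at the 2-fold limit and falls under it with spike-in or total-count scaling. Cd163, the receptor for haemoglobin bound to haptoglobin, had 426 and 466 counts, or 3.10 and 3.60 TPM, and was 1.54-fold higher in replicate 2 (1.345 to 1.76). Replicate 2 was thus the higher library for both receptors, by a smaller factor than for any Kupffer-type gene.

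Cd14, the co-receptor for bacterial lipopolysaccharide, had 86 and 60 counts, or 1.87 and 1.18 TPM, with a scaled fold of 0.980 (0.693 to 1.38). Ly86, the partner of a Toll-like receptor relative, had 33 and 43 counts, or 0.84 and 1.24 TPM, and an interval of 1.14 to 2.97. Folr2, a folate receptor of resident macrophages, had 27 and 33 counts, or 0.98 and 1.04 TPM, at a fold of 1.72 (1.001 to 2.97). Folr2 is uncertain, because 63.1% of its annotated exon bases overlap the antisense gene Gm10602, which had 132 and 79 counts, and whether counting used strand is not given in the sources used here.

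Genes of the lysosome and phagosome had the largest summed level of the role groups, 40.6 and 36.1 TPM over 6 genes. Lyz2, lysozyme of myeloid cells, had 885 and 700 counts, or 21.02 and 17.45 TPM (mean 19.2 ± 2.52, SD, n = 2). Windows of 50 bases shared with its near copy Lyz1 made up 15.4% of its transcript, and Lyz1 itself had 113 and 59 counts. The difference of Lyz2 on the TMM scale was log2 0.15 (fold interval 1.005 to 1.23), which turns negative with spike-in or total-count scaling. The sign also turned for Cd68, a glycoprotein of the lysosome membrane, with 133 and 102 counts, or 3.60 and 2.74 TPM. Its log2 difference was 0.11, with a fold interval that held no difference (0.824 to 1.41).

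Ctss, the protease cathepsin S of antigen processing, had 149 and 191 counts, or 3.43 and 4.61 TPM, and was 1.80-fold higher in replicate 2 (1.45 to 2.25). Mpeg1, a pore-forming protein of phagosomes, had 497 and 592 counts, or 3.39 and 4.24 TPM, at 1.67-fold (1.48 to 1.89). Cybb, the catalytic subunit of the phagocyte NADPH oxidase, had 198 and 216 counts, or 1.47 and 2.25 TPM, at 1.53-fold (1.26 to 1.87). Among its partner subunits, log2 differences were 0.61 for Cyba and 0.85 for Ncf1, but -0.89 for the GTPase Rac2, which lymphocytes express too. Laptm5, a lysosomal membrane protein of blood cells including lymphocytes, had 554 and 294 counts, or 7.68 and 4.83 TPM, and was the second member whose fold lay below no difference (0.746, interval 0.645 to 0.860).

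Among the remaining surface and secreted products, Adgre1 and Aif1 were higher in replicate 2. Adgre1, the gene of the F4/80 antigen used to stain mouse macrophages, had 89 and 172 counts, or 1.24 and 1.91 TPM, a 2.72-fold difference (2.09 to 3.55). Aif1, the actin-binding protein Iba1, had 15 and 37 counts, or 0.73 and 2.06 TPM, at 3.47-fold (1.86 to 6.80). Both remained past 2-fold with spike-in and total-count scaling and in the second table, but Adgre1 did not on log2(TPM + 1) (0.38) or log2(TPM + 0.1) (0.58), nor Aif1 on log2(TPM + 1) (0.82).

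Cx3cr1, the receptor for fractalkine, had 132 and 97 counts, or 1.03 and 0.81 TPM, and an interval that held no difference (0.786 to 1.35). Pf4, a chemokine of platelets that some macrophages make, had 85 and 44 counts, or 7.05 and 2.95 TPM, with a fold of 0.727 (0.493 to 1.06). On log2(TPM + 1) and log2(TPM + 0.1) its differences were -1.03 and -1.23. In the second transcript table the log2 difference of Pf4 was -0.87, below that of Irf8 there (-0.55). Ms4a7, a membrane-spanning protein of macrophages, had 5 and 3 counts, or 0.10 and 0.15 TPM, too few for a comparison.

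Further genes of the same cells, which are no members, were described for comparison. Of 10 measured further Kupffer genes, 5 were at least 2-fold higher in replicate 2 and 0 lower, with a median log2 difference of 0.85 and summed levels of 53.9 and 76.9 TPM. Slc40a1, the iron exporter ferroportin, had 618 and 2112 counts (log2 2.26), and Nr1h3, the oxysterol receptor LXR alpha, 343 and 847 counts (log2 1.79), both also expressed by other liver cells. Fcna, C6 and Clec1b, named after their values were seen, were the other 3 past 2-fold. Id3 (0.19) and Hmox1 (-0.11) lay near no difference. Il18bp (0.54), Kcna2 (-0.17) and Spic (-0.34), also named after their values were seen, lay within 2-fold. Of 17 further macrophage genes, 3 were at least 2-fold higher, C1qb (1.24), C1qa (1.15) and, named after its values were seen, Siglec1 (1.23). The list's median was 0.43. The 1 gene at least 2-fold lower, also named after its values were seen, was Ptprc, the pan-leukocyte CD45, with 808 and 210 counts.

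The 11 genes that pass on signals from Fc receptor adaptors had a median log2 difference of 0.02, and 0 of them were at least 2-fold lower. Lyn, the most abundant of these kinases and phosphatases, had 10.9 and 8.51 TPM and a log2 difference of 0.02, and Inpp5d, a lipid phosphatase, had 4.54 and 2.87 TPM and -0.11. In the family around the Csf receptors, Sdc1, a proteoglycan that binds Il34 and that hepatocytes express, had 388 and 2049 counts (log2 2.89). Csf2ra, a receptor chain for the related cytokine GM-CSF, had a log2 difference of -0.02.

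Marker lists of hepatocytes, skeletal muscle and T cells differed between the libraries by more than the common macrophage genes did, and their part in the members' differences was not tested. All 10 hepatocyte genes were at least 2-fold higher in replicate 2, with a median log2 difference of 6.29 and summed levels of 338 and 19739 TPM. Of 8 genes of liver sinusoidal endothelium 4 were past 2-fold higher and 0 lower, among them Stab2, a scavenger receptor of these cells, at 91 and 1871 counts (log2 4.84). The median of that list was 1.04, and its summed level was 52.3 and 72.7 TPM. Clec4g, Dnase1l3 and Oit3, named after their values were seen, were the other 3 past 2-fold. Ehd3 (0.03), Stab1 (0.41), Gpr182 (0.65) and, named after its values were seen, Lyve1 (0.19) lay within 2-fold.

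Of 6 skeletal muscle genes 5 were at least 2-fold higher in replicate 2 (median 4.93, summed levels 22.3 and 479 TPM). All 9 T cell and thymocyte genes were at least 2-fold lower (median -4.33, summed levels 50.1 and 2.20 TPM), with Rag1, the recombinase of developing lymphocytes, at 1945 and 7 counts. Monocyte genes had a median of -0.25, neutrophil genes 0.45 and general endothelial genes 0.07, with 0 genes past 2-fold in each of these lists. The 8 genes of the adrenal cortex and medulla were all lower, with a median of -0.82 and none past 2-fold. No marker of these lists was at 0 in either library. The Kupffer-type median of 4.41 lies between that of the hepatocyte list and that of the other members, 0.62.

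**Figure D3:**
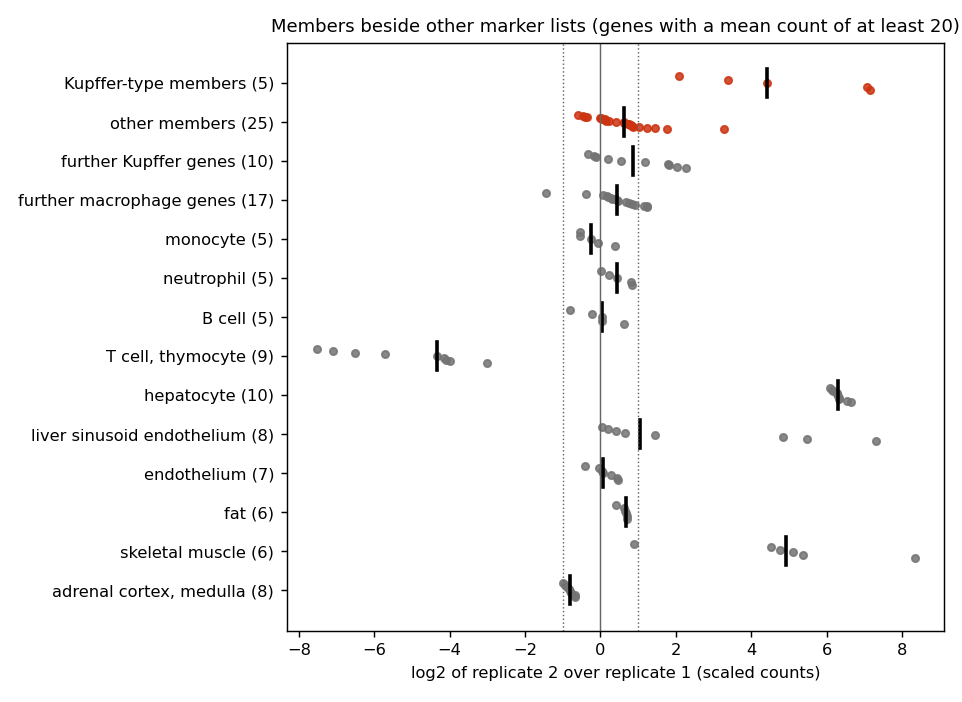
The log2 difference of replicate 2 over replicate 1 for each gene with a mean count of at least 20, as dots, with the median of each list as a black bar and the number of genes in brackets. The median of the Kupffer-type genes lies between those of the other members and the hepatocyte genes. Single genes do not keep this order, since Vsig4 (7.14) and Clec4f (7.07) lie beyond every hepatocyte gene (at most 6.63). The T cell genes lie on the opposite side of no difference.

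The transcript tables show how the TPM of each gene was divided among its annotated forms. Being per length, these shares give short transcripts more weight than their counts do. The 32 members have 119 annotated transcripts, 78 of them protein-coding, and 4 members (Lyz2, Mpeg1, Timd4 and Cd5l) have 1 each. For 22 of the 28 members with several, the transcript of highest mean TPM was the same in both tables. For 5 (Tyrobp, Folr2, Cybb, Aif1 and Ms4a7) it was not, and for 1, Ctss, the second table gave both of its transcripts equal levels. Across the 28, the leading transcript held a median of 74.2% and 80.3% of the gene's TPM in replicates 1 and 2 of the first table. It was protein-coding for 30 of the 32 members, the exceptions being Fcgr1 and Aif1.

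Among the Kupffer-type genes, Vsig4-201 and Marco-201 held 100% of their genes in both libraries and tables. In replicate 1 of the first table these shares rest on 1 count for Vsig4 and 7 for Marco. Clec4f-201, the coding form, held 66.95% of Clec4f in replicate 2, where the noncoding Clec4f-202 held 33.05%, and the second table gave 65.9% and 34.1%. By expected counts of the first table, the shorter Clec4f-202 held 50.5 of 527 in replicate 2. The share of Clec4f-201 in replicate 1 of the first table rests on 5 counts. For Fcgr2b the shares differed between tables: the first gave Fcgr2b-202 62.4% and 67.3% in replicates 1 and 2, and the second 9.11% and 39.9%, with the longer Fcgr2b-201 at 61.3% and 24.6% there.

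Several common members also divided their signal. Csf1-201 held 41.4% and 52.4% of Csf1 in the first table, and Csf1-202 held 32.3% and 25.9%. Noncoding forms took 51.1% and 64.1% of the Il34 level in replicates 1 and 2, with the coding form Il34-201 at 48.9% and 26.9%. By expected counts, Il34-201 held 82.2 of 102 in replicate 1 and 38.2 of 79 in replicate 2, the noncoding forms being shorter. For Pf4 the retained-intron form Pf4-202 took 61.5% in replicate 1 and 16.1% in replicate 2 of the first table, but 16.5% and 0% in the second. Csf1r-201 held 68.6% and 72.1% of Csf1r, of whose exon bases 15.1% overlap the opposite-strand gene Hmgxb3, with 1223 and 778 counts.

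**Figure D4:**
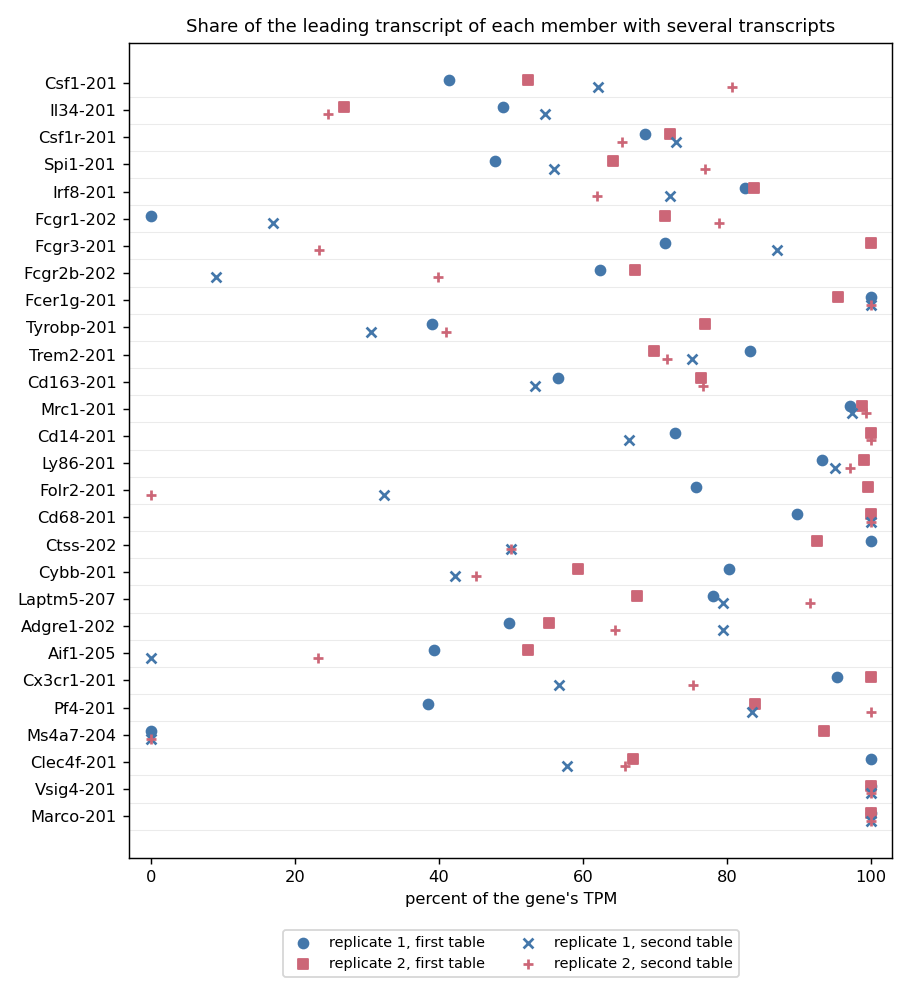
Percent of the gene's TPM held by the leading transcript of each of the 28 members with several transcripts, with filled symbols for the first table and crosses for the second, replicate 1 in blue and replicate 2 in red. Vsig4-201 and Marco-201 sit at 100% throughout, in replicate 1 of the first table on 1 and 7 counts. Fcgr2b-202 and Folr2-201 lie far apart between tables.

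The second transcript table, summed to genes, gave the same 10 members at least 2-fold higher in replicate 2. Vsig4 had 1 and 142 estimated counts there (log2 7.16 against 7.14 in the gene table), and Cd5l 22 and 327 (4.45 against 4.41). Clec4f had 9 and 554 (6.46 against 7.07) and Marco 11 and 60 (2.98 against 3.38). Fcgr2b differed most between the tables among members with a log2 difference over 1, since its estimate in replicate 1 was 182 there against 77 counts, at 657 against 532 in replicate 2. None of the 5 Kupffer-type genes shared a 50-base window with another gene, and 25 of the 32 members shared none.

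**Figure D5:**
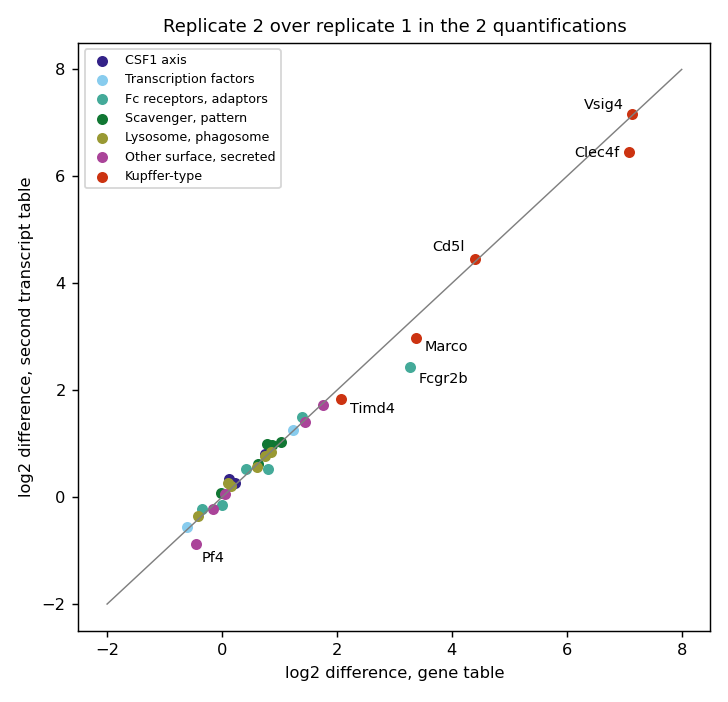
The log2 difference of replicate 2 over replicate 1 of each member in the gene table (x axis) and in the second transcript table (y axis), coloured by role, with the line of equal values. The points follow the line from Irf8 and Pf4 at the lower left to Clec4f and Vsig4 at the upper right, and Fcgr2b lies below it.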

How the data were processed

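Per the file headers, expected counts and TPM come from the authors' gene table and first transcript table, which also gives the deposited percent of a gene's TPM per transcript. Estimated counts and another TPM are in the second transcript table, again per the file headers. The text deposited with the samples names assembly mm10 and GENCODE M21. The aligner, the counter and strand use were not given in the sources used here. Deposited TPM is relative to all entries of a table, so it shifts with whatever dominates a library.

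Expected counts were rounded, genes sharing a symbol summed, and mitochondrial genes left out of comparisons. Counts were scaled with edgeR 4.0.16 (TMM), in R 4.3.3. Log2 differences used a prior count of 0.5, printed folds none. Called means at least 2-fold among genes of mean count 20 or more. With 1 group of 2 libraries there was no test, and no p-value is given. Samples were grouped by their labels. Totals were 37586172 and 33844950 counts, and ERCC spike-ins took 0.337% and 0.322% of them. Alternatives were spike-in or total-count scaling, size factors of DESeq2 1.42.0, log2(TPM + 1), log2(TPM + 0.1), other count minimums, the second table, rescaled TPM, other Kupffer-type sets and leaving out a replicate. Intervals were tested on simulated counts that held counting error only, the error they assume. That check therefore says nothing about variation between animals or about how reads were assigned.

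The members and gene lists were chosen with earlier results of these data known. Named were all members and, per further list, up to 4 genes of highest mean TPM, plus genes said to be named after their values were seen. Promoter windows came from RefSeq (GRCm38.p6).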

Additional observations from a re-analysis of the deposited data

How the results depend on the processing

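Of the 10 members at least 2-fold higher in replicate 2, spike-in or total-count scaling kept 8 (without Spi1 and Mrc1), log2(TPM + 0.1) kept 7 (without Adgre1 as well), log2(TPM + 1) kept 4 (Clec4f, Vsig4, Cd5l and Fcgr2b) and a mean count of at least 100 kept 5 of the 16 members then left. DESeq2 size factors and the second table also gave 10, and no filter 11, with Fcgr1 added. On log2(TPM + 1) and on log2(TPM + 0.1), 1 member, Pf4, was at least 2-fold lower. Intervals above no difference numbered 12 under that count minimum, where fewer members are left, and intervals below it 4 with total-count scaling. The median log2 difference of all measured members was 0.75, and 0.26 on log2(TPM + 1), where the median over all genes was -0.31. The Kupffer-type median of 4.41 became 2.11 on log2(TPM + 1), 3.66 on log2(TPM + 0.1), 5.74 at a mean count of at least 100 with 2 genes left, and 3.38 with Folr2 and Cd163 counted in. A pseudocount of that size lowers differences of genes under 1 TPM by construction. The median member level of 2.77 TPM ranged from 1.67 to 2.795 leaving out each replicate, and was 3.99 in the second table and 9.81 when rescaled to protein-coding genes. The median share of the leading transcript, 77.3% over both libraries, was 68.9% in the second table. No called member changed direction under any alternative. With spike-in or total-count scaling 6 uncalled members changed sign (Csf1, Il34, Fcer1g, Cd68, Lyz2 and Cx3cr1). No paired analysis was possible because there is 1 group. Every difference rests on 1 library a side, so leaving out either leaves none, and depth limits Vsig4, Clec4f, Marco and Ms4a7, which had under 10 counts in replicate 1.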
